A study of Canis lupus familiaris with 5 samples.

Results

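An interval of dog chromosome 18 was examined in which a run of neighbouring gene models was detected mainly in induced neural stem cell-like cells (iNSLCs), the primary colony-forming cells of the reprogramming. Its members were chosen by position, as all gene models of the count table between 46206173 and 46334973 on chromosome 18 (genome build CanFam3.1), and the interval itself was chosen on the levels in these libraries. It spans 128.8 kb and holds 8 of the 32220 gene models. The 5 bulk RNA libraries came from 1 adult dog, named K9. The fibroblast library was made from ear skin-derived fibroblasts at passage 1. The iNSLC library, at passage 2, was made from colonies that appeared after such fibroblasts had received the EP-B set of episomal vectors, which carries reprogramming factors, and had been cultured in the induction medium NSM. The 3 libraries of induced pluripotent stem cells (iPSCs) were made from clones at passage 9 (iPSC 1) and passage 8 (iPSC 2 and iPSC 3), obtained by culturing colonies in an embryonic stem cell medium. Fibroblasts and iNSLCs had 1 library each, passage differed with group, and the sources used here do not say whether the iNSLC library came from 1 clone or a bulk culture. Its title carries the number 1, as does that of iPSC 1, and whether both came from the same colony was not stated.

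The interval had been expected, from its position, to lie near the imprinted domain of IGF2. In mammals this domain is a textbook case of imprinting, in which a shared control region lets IGF2, a growth factor of fetal tissues, be transcribed from the paternal copy and the noncoding RNA H19 from the maternal copy. INS, which encodes insulin, and TH, the rate-limiting enzyme of catecholamine synthesis, are neighbours of IGF2 in mammals. The expectation could not be tested by identifier. The table of gene names at hand describes another assembly (UU_Cfam_GSD_1.0), holds an Ensembl ID in 0 of its 43286 rows and matched 0 of the 32220 IDs, so no gene model is given a symbol here, and the cell types could not be checked by their marker genes. In that table IGF2 also lies on chromosome 18, and its named neighbours in order are MRPL23, H19, IGF2 with MIR483 within its span, INS, TH, ASCL2, TSPAN32 and CD81. Left out of this order are LOC111090823, between H19 and IGF2, and LOC111090849, between MIR483 and INS, with a span of 7791 bases. The spans listed there are 2705 bases for H19, 15037 for IGF2, 69 for MIR483, 882 for INS and 7839 for TH. In the interval, ENSCAFG00000028594 and ENSCAFG00000026590 have 69 bases, and ENSCAFG00000010099 spans 7838 bases. No member has the span listed for H19, IGF2 or INS. ENSCAFG00000039851 spans 3383 bases, ENSCAFG00000010090 spans 10821 bases and ENSCAFG00000010092 spans 13069 bases. Of the members of 69 bases, only ENSCAFG00000026590 lies within the span of another member, and it had at most 1 count in any library. Spans do not pair a model with a gene, and whether these are the same genes was not established.

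In order of position, the first 3 members were single-exon models within 1.08 kb. ENSCAFG00000029304 (46206173 to 46206243, plus strand) has 71 bases, ENSCAFG00000022843 (46206389 to 46206483, minus strand) has 95 bases, and ENSCAFG00000028594 (46207182 to 46207250, plus strand) has 69 bases. They are called the 3 short models below, where the 69-base model always means ENSCAFG00000028594. ENSCAFG00000039851 (46208991 to 46212373, plus strand) has 2 exons. After a gap of 86.7 kb from the last short model follows ENSCAFG00000010090 (46293985 to 46304805, minus strand), with 13 exons of 1655 bases in all, called the lower 13-exon model. ENSCAFG00000026590 (46298392 to 46298460, minus strand), a single exon of 69 bases, lies within its span on the same strand and shares 0 bases with its exons. ENSCAFG00000010092 (46311865 to 46324933, minus strand) has 7 exons. ENSCAFG00000010099 (46327136 to 46334973, minus strand) has 13 exons of 1728 bases in all and is called the upper 13-exon model. Its whole span lies within that of a model on the plus strand that leaves the interval, with which it shares 0 exon bases. The 3 short models do not overlap one another. As the sources used here do not give the strand setting of the counting, reads from the opposite strand may also have been counted to a model.

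The interval as a whole was nearly silent in fibroblasts, high in iNSLCs and low but detected in iPSCs. Together the 8 members held 10 counts of 33280017 in fibroblasts, 2117 of 11699186 in iNSLCs, and 213 of 29564180, 240 of 20021139 and 356 of 34317091 in iPSC 1, iPSC 2 and iPSC 3. In CPM, the counts scaled to a common library size after correction of each total with its TMM factor, their summed level was 0.390 in fibroblasts, 185 in iNSLCs and 6.58, 10.7 and 9.61 in the clones, a mean of 8.96 ± 2.12 (SD, n = 3). The iNSLC level thus lay above all clones and the fibroblast level below all of them. The ratio of iNSLCs to fibroblasts was 473, with an exact 95% counting interval from 257 to 988, and that of iNSLCs to the mean of the clones was 20.6. In bulk RNA, more cells with these transcripts and more RNA per cell cannot be told apart.

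The high level in iNSLCs came from 5 of the 8 members. These were the 3 short models and both 13-exon models, each with at least 10 CPM in iNSLCs, while 0 members reached 10 CPM in any other library. The other 3 members had at most 2 counts in every library. ENSCAFG00000039851 had 2 counts in iNSLCs, iPSC 1 and iPSC 3 and 0 in fibroblasts and iPSC 2, ENSCAFG00000026590 had 1 count in iPSC 2 alone, and ENSCAFG00000010092 had 0 counts in all 5 libraries. The chosen floor of 3 counts corresponds to 0.117 CPM in fibroblasts, 0.262 CPM in iNSLCs and 0.0810 to 0.133 CPM in the clones. Levels under these rested on fewer than 3 counts and are uncertain at this depth.

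**Figure D1:**
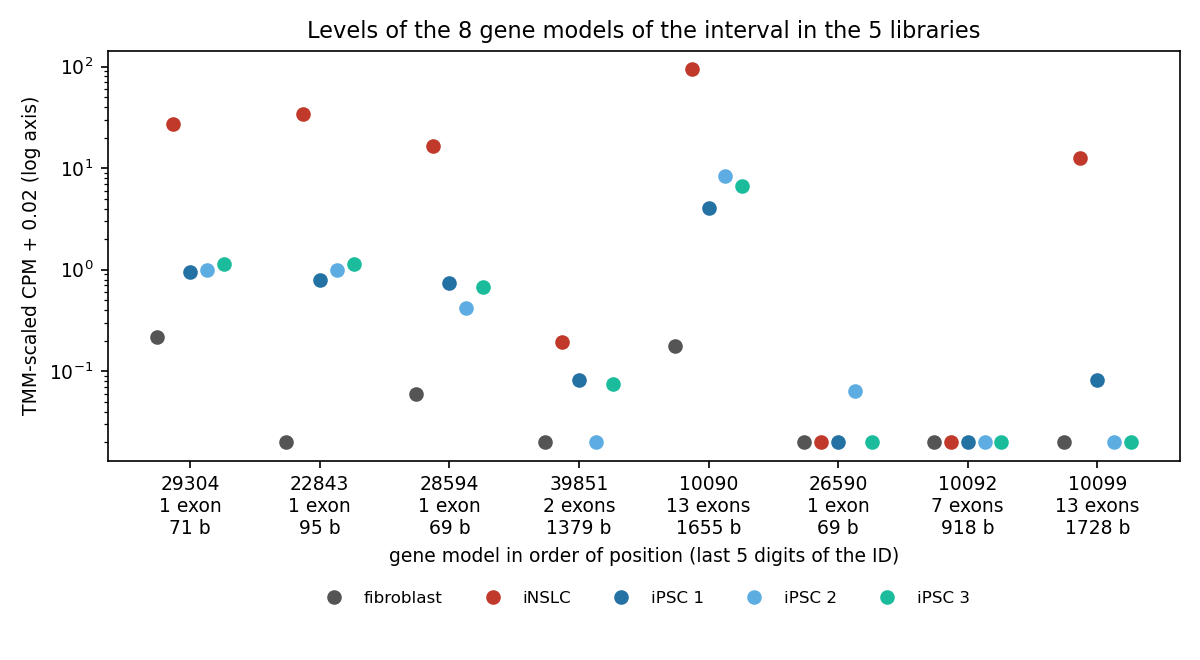
Levels of the 8 gene models of the interval in the 5 libraries, in order of position, as TMM-scaled CPM with an offset of 0.02 on a log axis, 1 point per library, with the exons and bases of each model under it. In 5 models the iNSLC point is the highest, at 12.6 to 93.9 CPM, the clones lie between it and the fibroblast point in 4 of these, and the other 3 models stay near 0.

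The lower 13-exon model held the most counts of the 8 members in iNSLCs and in every clone. It had 4 counts in fibroblasts, 1077 in iNSLCs and 131, 186 and 247 in iPSC 1, iPSC 2 and iPSC 3. This corresponded to 0.156 CPM in fibroblasts, 93.9 CPM in iNSLCs and 4.05, 8.28 and 6.67 CPM in the clones. The clones were all above fibroblasts and all far below iNSLCs, and their mean was 6.33 ± 2.13 CPM (SD, n = 3). The iNSLC level was 601 times that of fibroblasts (counting interval 234 to 2212), and 23.2, 11.3 and 14.1 times that of iPSC 1, iPSC 2 and iPSC 3. Scaled by exon length, the level in iNSLCs was 56.7 CPM per kilobase of exon (RPKM), above 91.5% of the 17039 models of at least 200 bases with a count in that library. In the clones its 2.45, 5.0 and 4.03 RPKM were above 45.9, 53.4 and 54.8% of such models, and in fibroblasts its 0.0943 RPKM was above 11.5%.

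The upper 13-exon model was seen almost wholly in the iNSLC library. It had 145 counts in iNSLCs, 2 in iPSC 1 and 0 in fibroblasts, iPSC 2 and iPSC 3. Its iNSLC level was 12.6 CPM, or 7.32 RPKM, which was above 54.4% of the models of at least 200 bases with a count. With libraries at 0 counts set to the floor of 3 counts per library, this was 108-fold higher than in fibroblasts. By the same setting it was 94.7-fold higher than in iPSC 2 and 156-fold higher than in iPSC 3. These values carry no counting interval. Against the 2 counts of iPSC 1 iNSLCs were 205 times higher (counting interval 55.6 to 1705), or 136 times with iPSC 1 set to 3 counts. Both 13-exon models have similar exon lengths, and per length the lower was the more abundant of the pair in iNSLCs.

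The 3 short models moved together. They lie within 1.08 kb, and whether they come from separate transcripts was not tested, so they need not be separate observations. The 71-base model ENSCAFG00000029304 had 5 counts in fibroblasts, 312 in iNSLCs and 30, 22 and 42 in iPSC 1, iPSC 2 and iPSC 3, which gave 0.195 CPM, 27.2 CPM and 0.927, 0.979 and 1.13 CPM. The 95-base model ENSCAFG00000022843 had 0 counts in fibroblasts, 391 in iNSLCs (34.1 CPM) and 25, 22 and 41 in the clones (0.773, 0.979 and 1.11 CPM). The 69-base model ENSCAFG00000028594 had 1 count in fibroblasts, 190 in iNSLCs (16.6 CPM) and 23, 9 and 24 in the clones (0.711, 0.40 and 0.648 CPM). In each of these the clones lay close together, above fibroblasts and below iNSLCs. Over the 3 models the iNSLC level was 332 times that of fibroblasts (counting interval 152 to 908) and 32.3, 33.0 and 26.9 times that of the clones. For the single models the level in fibroblasts rested on few counts. The ratio of iNSLCs to fibroblasts was 139 (59.1 to 432) for the 71-base model and 424 (75.3 to 16852) for the 69-base model. With fibroblasts set to 3 counts, this ratio was 291 for the 95-base model and 141 for the 69-base model.

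As models under 100 bases can be shorter than a sequenced fragment, their levels were not compared with those of longer models per length. Short models as a class were also looked at in every library. The 1306 models under 100 bases summed to 597 CPM in fibroblasts, 852 CPM in iNSLCs and 462, 629 and 621 CPM in the clones, so the class differed far less between libraries than the 3 members. Of 9 such models with at least 10 CPM in iNSLCs, 4 (44.4%) were at least 4-fold above every other library. Of these 9, 3 are the members themselves, and among the other 6 only 1 had this pattern.

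A pattern close to the one that chose the interval was rare in the genome. Of 9342 gene models with at least 10 CPM in iNSLCs, 252 (2.70%) were at least 4-fold above every other library, with counts under 3 set to 3, against 5 of 5 members with at least 10 CPM. Of 10237 models with at least 10 CPM in iNSLCs or fibroblasts, 814 (7.95%) were at least 4-fold higher in iNSLCs than in fibroblasts, again against 5 of 5 members. These member counts follow from the choice of the interval and are given as a description, and the 3 short models among them need not be separate observations. The comparison of iNSLCs with fibroblasts rests on 1 library each and was not tested.

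**Figure D2:**
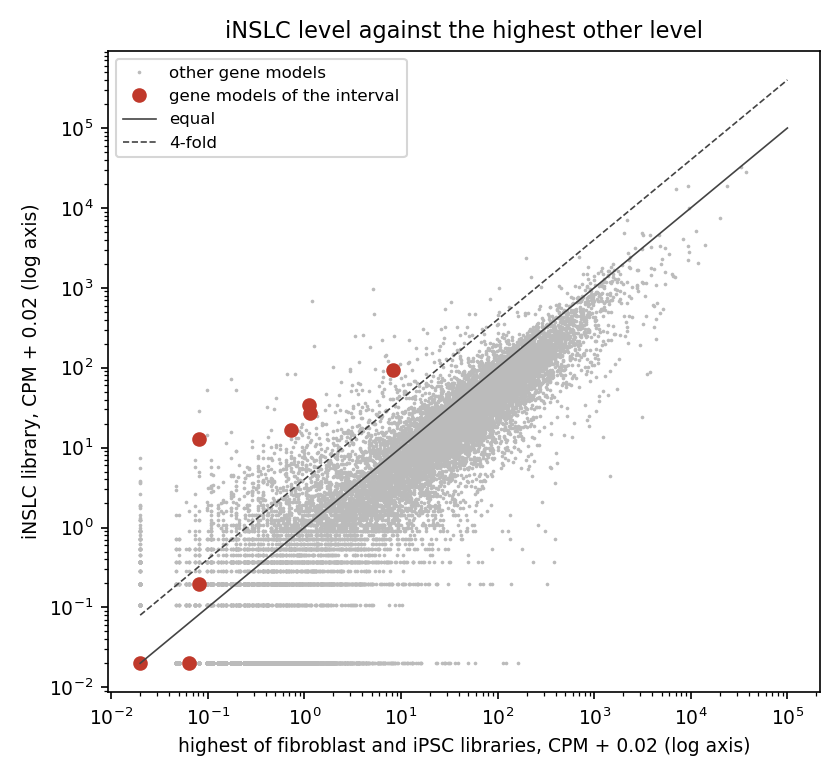
Level in the iNSLC library (vertical) against the highest level among the fibroblast and iPSC libraries (horizontal) for all 32220 gene models, both as TMM-scaled CPM with an offset of 0.02 on log axes, with lines of equal level and of a 4-fold difference. The 5 abundant models of the interval lie above the 4-fold line, and the other 3 lie near the lower left corner.

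The shares of the members within each library do not depend on the scaling of its total. They are given as a description, as the iNSLC levels were used in choosing the interval and rest on 1 library. Of the counts of the 3 short models and the lower 13-exon model together, the short models held 45.3% in iNSLCs (893 of 1970, Clopper-Pearson interval 43.1 to 47.6%). They held 37.3% in iPSC 1 (30.7 to 44.3%), 22.2% in iPSC 2 (17.1 to 28.0%) and 30.2% in iPSC 3 (25.5 to 35.3%), a mean of 29.9 ± 7.58% (SD, n = 3). The iNSLC share was above that of every clone, although its interval overlapped that of iPSC 1, and the clones also differed among themselves. In fibroblasts the share was 60.0% of 10 counts, with an interval from 26.2 to 87.8% that holds the shares of iNSLCs, iPSC 1 and iPSC 3 but not that of iPSC 2. The upper 13-exon model held 11.9% of the counts of both 13-exon models in iNSLCs (145 of 1222, interval 10.1 to 13.8%). It held 1.5% in iPSC 1 (2 of 133, interval 0.183 to 5.33%) and 0 of 186 and 0 of 247 in iPSC 2 and iPSC 3, which allow shares of up to 1.61% and 1.21% by the limit of 3 counts, with Clopper-Pearson upper bounds of 1.96% and 1.48%. Among the 3 short models, the 95-base model held 43.8% of the counts in iNSLCs (40.5 to 47.1%) and 32.1%, 41.5% and 38.3% in the clones, with intervals that overlapped that of iNSLCs in every clone. Intervals cover counting error only, and would be too narrow if each read pair gave 2 counts.

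**Figure D3:**
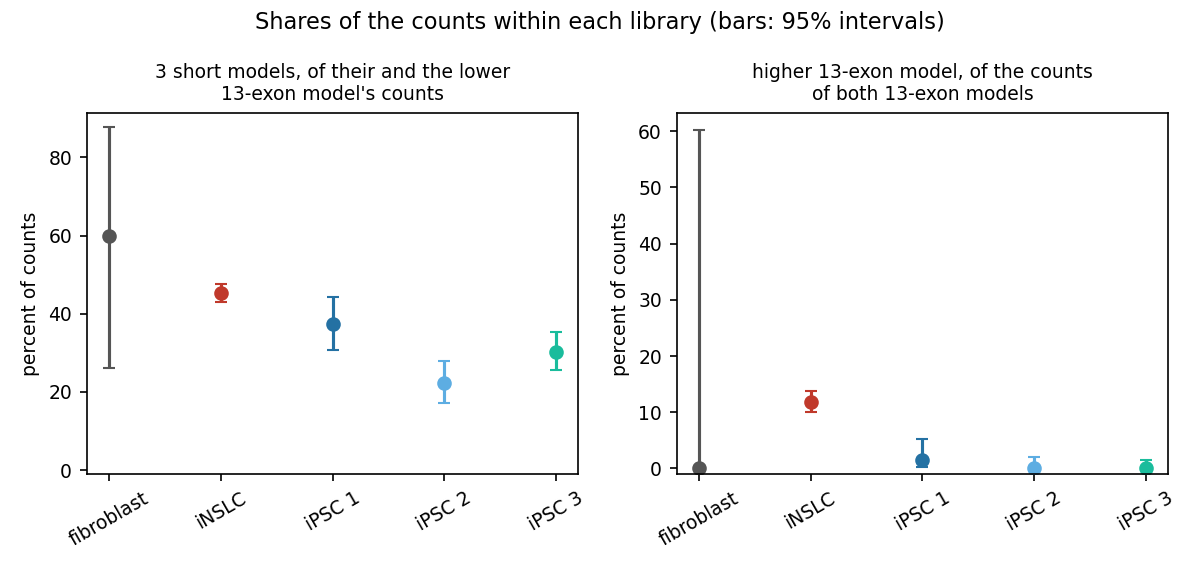
Percent of counts within each library held by the 3 short models, of their counts and those of the lower 13-exon model (left), and by the upper 13-exon model, called higher in the panel, of the counts of both 13-exon models (right). Points are libraries and bars are Clopper-Pearson 95% intervals of counting error. The iNSLC library lies at 45.3% and 11.9%, and the clones lie at 22.2 to 37.3% and 0 to 1.5%.

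In the fit of all 3 groups, 4 members were higher in iPSCs than in fibroblasts, and 2 of these calls were kept when the iNSLC library was left out. Of the 5 members that entered edgeR's quasi-likelihood test, 4 were higher in iPSCs and 0 lower, where 2387 of all 17479 models tested (13.7%) were higher. The working description of the interval as active in iNSLCs alone did not hold for these 4 in this fit. The interval was chosen for detection mainly in iNSLCs, which also bears on the fibroblast and clone levels. The count of 4 of 5 is therefore a description, and the 5 include the upper 13-exon model, which entered through its iNSLC counts. The 3 short models among them need not be separate observations. The log2 fold change was 5.30 (SE 0.772, edgeR adjusted p = 0.00653) for the lower 13-exon model. It was 7.63 (SE 1.21, adjusted p = 0.00828 in edgeR) for the 95-base model, where the fibroblasts had 0 counts and the clones were at least 6.60, 8.36 and 9.45-fold higher than the floor of 3 counts. The 71-base model had a log2 fold change of 2.35 (SE 0.661, edgeR adjusted p = 0.0447) and the 69-base model one of 3.76 (SE 0.982, edgeR adjusted p = 0.0361). The upper 13-exon model did not pass the test, with 2 counts in iPSC 1 and 0 in fibroblasts (edgeR adjusted p = 0.492). The median log2 fold change of the 5 members was 3.76, against 0.27 over all models tested. This is the value of the 69-base model, whose 1 count in fibroblasts lies under the floor of 3 counts. The median is a description only, since the upper 13-exon model entered the fit through its iNSLC counts. Without the iNSLC library that model was not tested, and edgeR called 2 of the 4 members left, the lower 13-exon model and the 95-base model, with adjusted p = 0.10 for the 71-base and 0.0774 for the 69-base model.

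The spread in this test came from the 3 clones with 2 residual degrees of freedom, the fit lent this spread to the single fibroblast and iNSLC libraries, and p-values do not measure a spread between animals. The calls of the 71-base and 69-base models were lost without iPSC 1 (edgeR adjusted p = 0.0881 and 0.0689) and without iPSC 3 (edgeR adjusted p = 0.0753 and 0.0796), which left 2 called members in each case.

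In the contrast of iPSCs with iNSLCs, on which the interval had been chosen, all 5 tested members were called lower in iPSCs, where 1348 of 17479 models (7.71%) were. The log2 fold changes ranged from -8.90 for the upper 13-exon model to -3.89 for the lower, with a median of -4.80, against 0.20 over all models tested. Nothing is read from this count, as the interval was chosen for detection mainly in iNSLCs. Without iPSC 3 edgeR called 0 of 5 members and 0 of 16742 models, with 4863 at an unadjusted p under 0.05, while the log2 fold changes of the members stayed between -8.37 and -4.00.

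Abundant flanking models did not share the pattern. Within 500 kb below it lay 21 models, 10 of them with 0 counts in every library, and within 500 kb above it, or crossing its upper edge, lay 11. Of these 32 flanking models, 7 had at least 10 CPM in iNSLCs, and 0 of the 7 were 4-fold above every other library. The nearest model below, ENSCAFG00000033181 (46185648 to 46189343), had 0 counts in all libraries. The plus-strand model that crosses the upper edge, ENSCAFG00000010231 (46321292 to 46829537), had at most 3 counts in any library. The next model above, ENSCAFG00000010103 (46395391 to 46395975), a single exon named after its values were seen, had 10 counts in iNSLCs (0.872 CPM), 1 in fibroblasts and 0, 0 and 2 in the clones. Its highest level was thus also in iNSLCs, but under the minimum of 10 CPM.

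Neighbours that were well expressed in iNSLCs were also expressed in fibroblasts. In the order fibroblasts, iNSLCs and iPSCs, the most abundant of them, ENSCAFG00000010052 (46009825 to 46019780), had 809 CPM, 630 CPM and 150 ± 56.5 CPM (SD, n = 3), and ENSCAFG00000010121 (46466499 to 46473960) had 291 CPM, 290 CPM and 89.8 ± 28.4 CPM (SD, n = 3). Both are named after their values were seen. Of 12 flanking models tested, edgeR called 3 lower in iPSCs than in iNSLCs, against 7.71% of all models, and 4 lower than in fibroblasts, against 2508 of 17479 (14.3%), and 0 were called higher in either contrast. In the contrast with fibroblasts, every flanking model called in this fit was thus lower in iPSCs. The members called in that contrast, 4 of 5 tested, were higher. Of these, ENSCAFG00000029304 and ENSCAFG00000028594 each lost the call in 6 of 11 alternative settings. With library size as the only scaling, and also without iPSC 1, 2 flanking models were called lower than in fibroblasts, and without iPSC 3 edgeR called 0 lower than in iNSLCs.

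**Figure D4:**
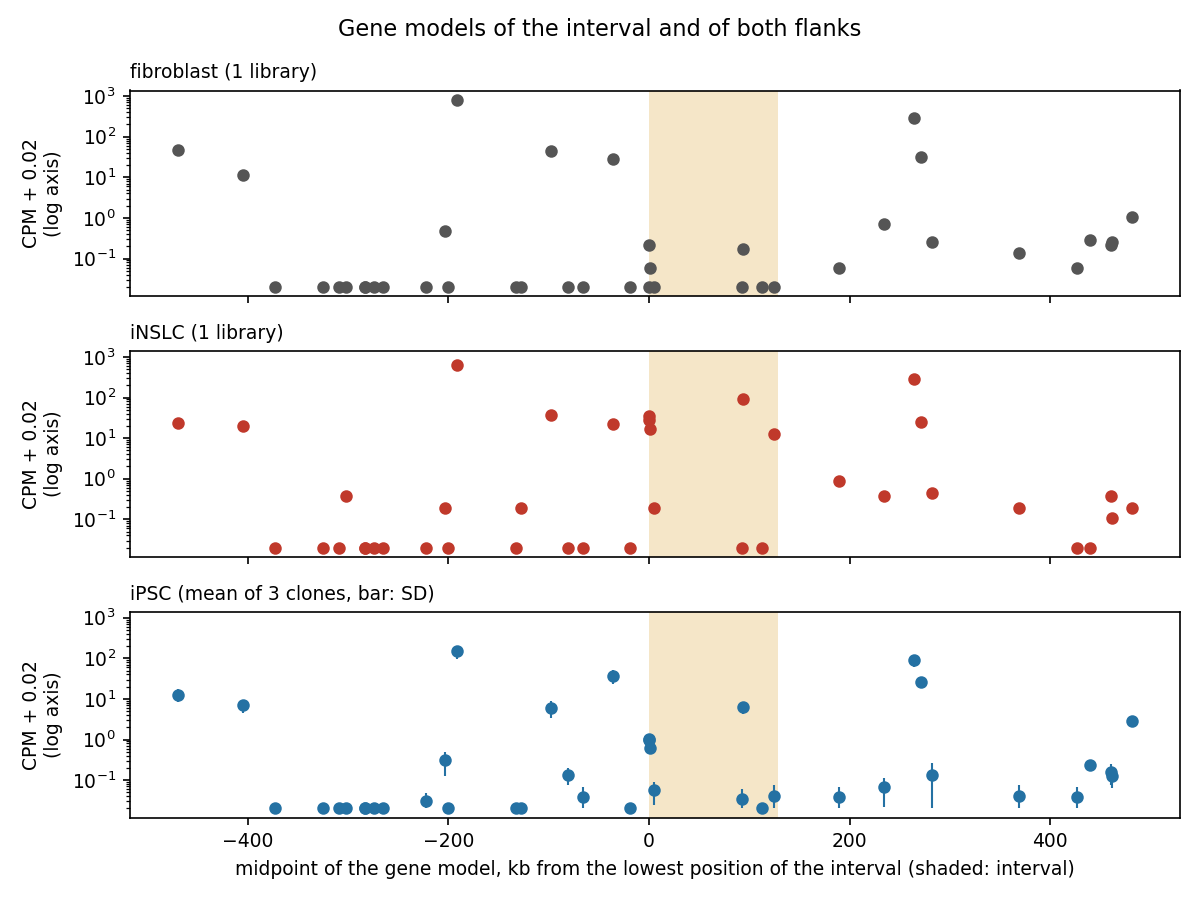
Levels of the 8 gene models of the interval (shaded) and of the 32 flanking models in fibroblasts, iNSLCs and iPSCs, as TMM-scaled CPM with an offset of 0.02 on log axes, plotted at the distance of each model's midpoint from the lowest position of the interval in kb. Fibroblasts and iNSLCs have 1 library each, and iPSC points are means of 3 clones with SD bars. The abundant flanking models are present in all 3 panels, and the 5 abundant models of the interval are highest in the iNSLC panel. In the iPSC panel the lower 13-exon model has 6.33 CPM, near the 6.04 CPM of the flanking ENSCAFG00000010077.

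Models elsewhere in the genome with a like profile were few. The mean profile of the 5 abundant members in log2(CPM + 1) over the 5 libraries was compared with that of 9330 models with at least 10 CPM in iNSLCs outside the interval and its flanks, and 14 (0.150%) had a Pearson correlation of at least 0.99. The highest were ENSCAFG00000016004 (chromosome 9, 21823976 to 21829564) and ENSCAFG00000003927 (chromosome 15, 10885136 to 10975005), both at 0.9983 over 5 libraries. The first had 0.0781 CPM in fibroblasts, 10.6 CPM in iNSLCs and 0.649, 0.845 and 1.05 CPM in the clones. The other had 0 in fibroblasts, 24.5 CPM in iNSLCs and 0.742, 0.890 and 1.32 CPM in the clones. These correlations are a description over 5 points, of which the iNSLC library stands far above the rest.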

How the data were processed

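The authors deposited raw counts of reads per gene model, not normalized, for each of the 5 libraries and as a joint table, with 0 differing values. The submitters' processing notes name the build CanFam3.1, featureCounts 1.5.2, the aligner STAR 2.5.3a and the trimming tool Trim Galore 0.4.0. Strand, pairing and multi-mapping settings were not stated there. The exon length per model, also deposited, was used for RPKM. Groups came from the sample titles. All models were fitted with edgeR 4.0.16 in R 4.3.3 in 1 fit of the 3 groups, with TMM scaling, filterByExpr, the quasi-likelihood test and a threshold of 0.05 on p adjusted by Benjamini-Hochberg, which tested 5 of the 8 members. The standard error is the log2 fold change divided by the square root of F. The fit was tested on simulated data. CPM used the full library total (11699186 to 34317091 counts) times the TMM factor (0.770 to 1.12). Ratios have exact conditional intervals at 95%, which cover counting error only. Alternatives were DESeq2 1.42.0, limma-voom (limma 3.58.1), other scalings, no filter, halved counts, fits of the groups compared alone and fits without 1 clone. The members and lists were chosen with earlier results of these data known. Every member was named, and outside the interval the nearest models, the 2 with the most similar profile and those stated. The gene lists set for imprinted genes, the IGF axis and cell type markers were not analysed, as no ID had a symbol. All replicates were clones from 1 dog, and p-values cover only the spread between these samples.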

Additional observations from a re-analysis of the deposited data

How the results depend on the processing

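Of 72 values recomputed under alternatives, 58 stayed within the limits set (a count within 1.5 times, another value within the spread of the clones or its counting interval), 14 moved and 0 turned direction. Nearly all moved values were in the contrast of iPSCs with fibroblasts, where most alternatives moved. The other results share the iNSLC levels on which the interval was chosen, so their stability is a description. All 5 members stayed at least 4-fold above every other library in iNSLCs under each scaling, with halved counts, a minimum of 1 CPM, a fold of 8 and without each clone. The number of members called higher in iPSCs than in fibroblasts, 4, was 2 with limma-voom, 2 with halved counts, 2 with only the groups compared in the fit, 2 at an adjusted p under 0.01, and 2 to 4 without 1 clone. The lower 13-exon model and the 95-base model kept their call in all 11 alternatives (adjusted p at most 0.0432 and 0.0368), while the 71-base and 69-base models each lost it in 6 of 11. The median log2 fold change against fibroblasts, 3.76, was 3.94 with the upper quartile, 4.22 with library size only, 3.26 with no filter, 3.36 with limma-voom, 2.85 with halved counts, 4.54 with only the groups compared, and 3.67 to 4.01 without 1 clone. No filter added 2 members and the fit of the groups compared dropped 1, so these medians cover other members. The cause of the other shifts was not tested. Against iNSLCs, the 5 called members were 0 to 5 without 1 clone, with 0 without iPSC 3. Depth limits the fibroblast values, where members had at most 5 counts. No paired analysis was possible because the compared groups share fewer than 2 replicate numbers.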
